A study of Mus musculus with 4 samples.

Results

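Zbtb16, Fkbp5, Tsc22d3, Sgk1, Klf9, Ddit4, Errfi1 and Nr3c1 are a set of 8 mouse genes made up of the glucocorticoid receptor gene and genes that glucocorticoids are known to induce in many tissues. They were looked up by gene symbol in the 7000 genes that the authors' deposited liver RNA-Seq results list. The set was chosen from earlier results of these data, with the authors' own fold changes between the diets in view, so no test was made of it. Of the 8 genes, 5 were listed (Zbtb16, Fkbp5, Tsc22d3, Ddit4 and Nr3c1), and Sgk1, Klf9 and Errfi1 were not. Which genes are listed may depend on the authors' p-value between the diets, so counts of listed genes do not show which genes the liver expresses. The paper does not give the number of genes tested, so the share of them that is listed is not known here. The libraries came from liver of male wild-type FVB/N mice, which were given the diets from weaning at 3 weeks of age for 6 weeks. The study compared 2 mice fed a torula yeast diet with 0 ppm added Se, named 0 Se, with 2 mice fed the same kind of diet with 0.1 ppm Se added as sodium selenite, named 0.1 Se. For each gene the deposited results hold 1 level over all 4 libraries, and 0 columns hold values of a single mouse. The diets are therefore not compared here, the levels have no standard deviation, and the depth of each library is unknown. Each level, rank and ratio between genes mixes both diets and need not hold in either of them. The question whether dietary Se changes mRNA levels or translation was asked by the study itself. Besides this liver RNA-Seq it used liver and lung microarrays and liver ribosome profiling. Its fold changes and p-values are not used here.

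Glucocorticoids are steroid hormones of the adrenal gland that act through the glucocorticoid receptor, the product of Nr3c1. Without hormone the receptor is held in the cytoplasm by Hsp90 and its co-chaperones. After binding hormone it enters the nucleus and binds DNA at response elements built from a short sequence and its reverse complement, set a few bases apart. In liver this pathway is known for inducing enzymes of gluconeogenesis and amino acid breakdown. Fkbp5 encodes FKBP51, an Hsp90 co-chaperone that lowers the affinity of the receptor for hormone. Tsc22d3 encodes GILZ, a leucine zipper protein with anti-inflammatory action. Zbtb16 encodes PLZF, a zinc finger transcription factor of the BTB domain class. Ddit4 encodes REDD1, an inhibitor of mTORC1 signalling. Sgk1 is a serine/threonine kinase, Klf9 a Krüppel-like zinc finger factor, and Errfi1 an inhibitor of the epidermal growth factor receptor.

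Response element letters near the start sites of the set were searched for, because such elements are the known route from the receptor to its target genes. The perfect palindrome searched for was AGAACA followed by any 3 bases and then by its reverse complement, on both strands. The 2 places where it was found near a start site of the 6 genes searched are shown 5′ to 3′ on the strand of the gene, with the 15 letters of the element in capitals. The first lies at chr17:28579357-28579385 on the minus strand and the second at chr10:21713500-21713528 on the plus strand of NCBIM37, the assembly of mm9.

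Fkbp5: ttgtttgAGAACAGCTTGTTCTaggcttt

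Sgk1: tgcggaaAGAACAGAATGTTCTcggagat

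The Sgk1 element was found in the RefSeq promoter sequences of GRCm38.p6, which run from 250 bases before to 50 bases after a start site, at chr10:21993694-21993722. It begins 189 bases before the start site. Of 32851 promoters in the RefSeq collection, 3 hold the palindrome (0.00913%), and this Sgk1 promoter is 1 of them. The collection has 14 promoters for the 6 genes searched. Those of Fkbp5 (1 promoter), Tsc22d3 (3), Ddit4 (1), Klf9 (1) and Errfi1 (2) do not hold these letters in this window. Zbtb16 and Nr3c1 were not searched, here or in the wider window below, and are outside these counts. The single element AGAACA, which is also part of the palindrome, stands in 18.97% of all the promoters. It stands in 4 of the 14 promoters of these genes, 3 of them Sgk1 promoters and 1 a promoter of Tsc22d3. Among the 3 listed genes that were searched, the Tsc22d3 promoter is thus the only one of 5 with the single element.

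The Fkbp5 element was found when the window was widened to 1000 bases on each side of the annotated start sites of coding transcripts in NCBIM37. It begins 711 bases before the start of the short transcript Fkbp5-002. In the 11-exon transcript Fkbp5-001, the coding transcript whose length is nearest to that listed by the authors, it lies in the intron between exons 1 and 2. Of 46013 start sites, many of which lie close together, 13 (0.0283%) have the palindrome in this wider window, and 3 of these 13 are start sites of the 6 genes searched, 1 of Fkbp5 and 2 of Sgk1 around the same element. With 1 mismatch allowed, 437 start sites (0.95%) have it, and among the 6 genes searched still only those 3. A match of letters is a description of the sequence and was not tested for receptor binding here.

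Nr3c1, the receptor gene, had a mean level of 164 CPM over the 4 libraries, CPM being reads scaled to a common library total. It lies on chromosome 18 of NCBIM37 from 39570199 to 39650955 on the minus strand and has 9 annotated transcripts, all of them coding. The authors' entry is 6329 bases long, 2 bases longer than the nearest annotated transcript of 8 exons. CPM counts more reads for a longer mRNA, so levels of different genes were compared per kilobase of the listed mRNA. On that scale Nr3c1 stood at 25.9 CPM per kilobase, rank 1320 of the 7000 listed genes and 4.18 times the median listed gene at 6.19. The listed genes nearest to it in level per kilobase were Mrps31 above and Odc1 below, both at 25.9.

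Tsc22d3 was the most abundant of the listed members, with a mean of 191 CPM and 88.8 CPM per kilobase. This put it at rank 491, above 93.0% of the listed genes. The gene lies on the X chromosome from 137074067 to 137135198 on the minus strand. The listed mRNA of 2148 bases is 174 bases longer than the nearest coding transcript, which has 3 exons, and its level per kilobase depends on which of its transcripts the liver makes, which is not known here. The same holds for the other genes with several transcripts. In CPM, Tsc22d3 was only 1.16 times as high as Nr3c1, whereas per kilobase the ratio was 3.43, since the Nr3c1 mRNA is among the longer ones. Its neighbours in level were Rpn2 (88.9 CPM per kilobase) and Ndufv2 (88.3).

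Fkbp5 and Zbtb16 were close to the middle of the listed genes. Fkbp5 had a mean of 27.6 CPM and Zbtb16 one of 27.4 CPM, a ratio of 1.01. The entry for Zbtb16 has 5114 bases and that for Fkbp5 3505, so that Fkbp5 was 1.47 times as high per kilobase, at 7.87 against 5.36 CPM per kilobase. Their ranks per kilobase were 3058 and 3768, the first above and the second below the median listed gene. The side of the median depends on the scale and the genes counted. Without division by length Zbtb16 was above 60.3% of the listed genes, and among genes of at least 5 CPM Fkbp5 was above 45.1% per kilobase. With no spread between mice, neither ratio can be set against an error. The Fkbp5 gene spans 118430 bases of chromosome 17, from 28536040 to 28654469 on the minus strand. Zbtb16 spans 181635 bases of chromosome 9, from 48462416 to 48644050 on the minus strand, and its single annotated transcript of 7 exons is 14 bases shorter than the listed mRNA. The neighbours in level per kilobase were Gpr182 and Cir1 for Fkbp5, both at 7.87 or 7.86, and Tipin (5.36) and 2310035C23Rik (5.36) for Zbtb16.

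Ddit4 was the least abundant of the listed members, with a mean of 2.32 CPM and 1.38 CPM per kilobase. It ranked 5785 per kilobase, above 17.4% of the listed genes, and 6378 in CPM without division by length, above 8.89% of them. Its gene is the shortest of the set, 2096 bases of chromosome 10 from 59412423 to 59414518 on the minus strand, and the listed length of 1685 bases equals that of its only annotated transcript, with 3 exons. Cbx2 and Pprc1, at 1.38 and 1.37 CPM per kilobase, were next to it. From Tsc22d3 to Ddit4 the level per kilobase fell 64.6-fold, and in steps of 3.43, 3.29, 1.47 and 3.89 from one listed member to the next.

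**Figure D1:**
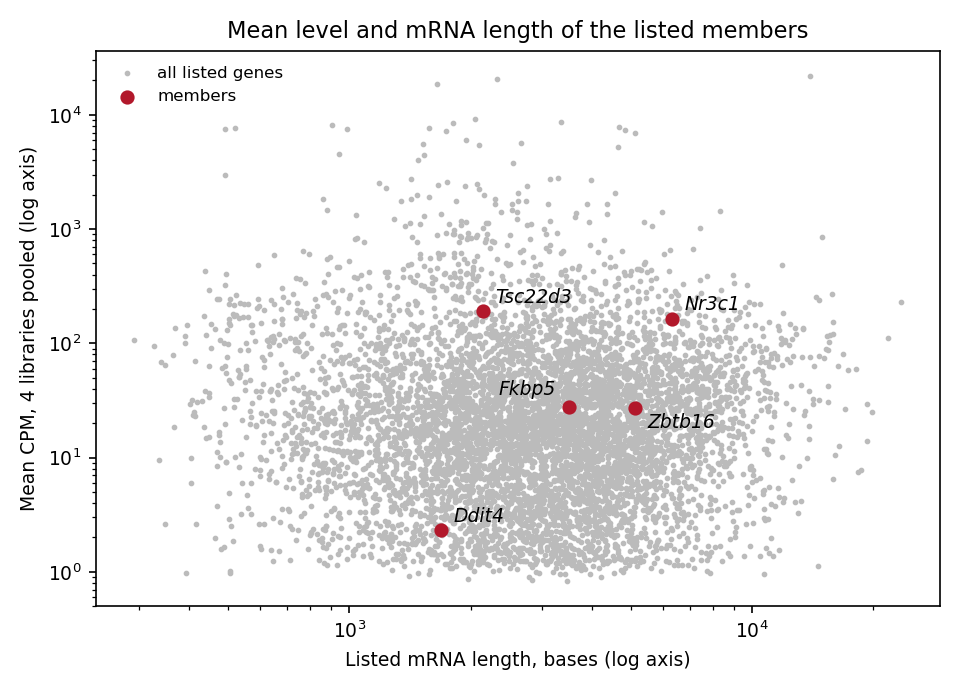
Mean CPM over the 4 libraries (vertical, log axis) against listed mRNA length in bases (horizontal, log axis) for the 7000 listed genes (grey) and the 5 listed members (red). Fkbp5 and Zbtb16 are level with each other at 27.6 and 27.4 CPM, Tsc22d3 and Nr3c1 lie higher at 191 and 164 CPM, and Ddit4 lies near the lower edge at 2.32 CPM.

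Within their gene families, taken by symbol from the listed genes, the members held different places. Tsc22d3 was the highest of 3 listed Tsc22d genes, with Tsc22d1 at 22.3 and Tsc22d4 at 1.04 CPM per kilobase. Per kilobase, Fkbp5 was 5th of 7 listed FK506-binding protein genes. In CPM without division by length, Fkbp5 at 27.6 was instead above Fkbp3 (16.9) and Fkbp11 (12.6). Fkbp4 was the highest of the 7 at 78.8 CPM per kilobase, against 7.87 for Fkbp5. Fkbp4 encodes FKBP52, the co-chaperone that competes with FKBP51 for the receptor complex and favours its activity. Zbtb16 was 5th of 21 listed Zbtb genes, whose median was 2.73 CPM per kilobase. Above it were Zbtb20, a regulator of liver gene expression, at 12.3, Zbtb44, Zbtb38 and Zbtb41. Nr3c1 was the only listed gene of its family, and Nr3c2, the mineralocorticoid receptor gene, was not listed. Of the families of the unlisted members, Sgk2 was listed at 21.1 and Sgk3 at 3.57 CPM per kilobase, and 8 Klf genes were listed, led by Klf15 at 71.2 CPM per kilobase.

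**Figure D2:**
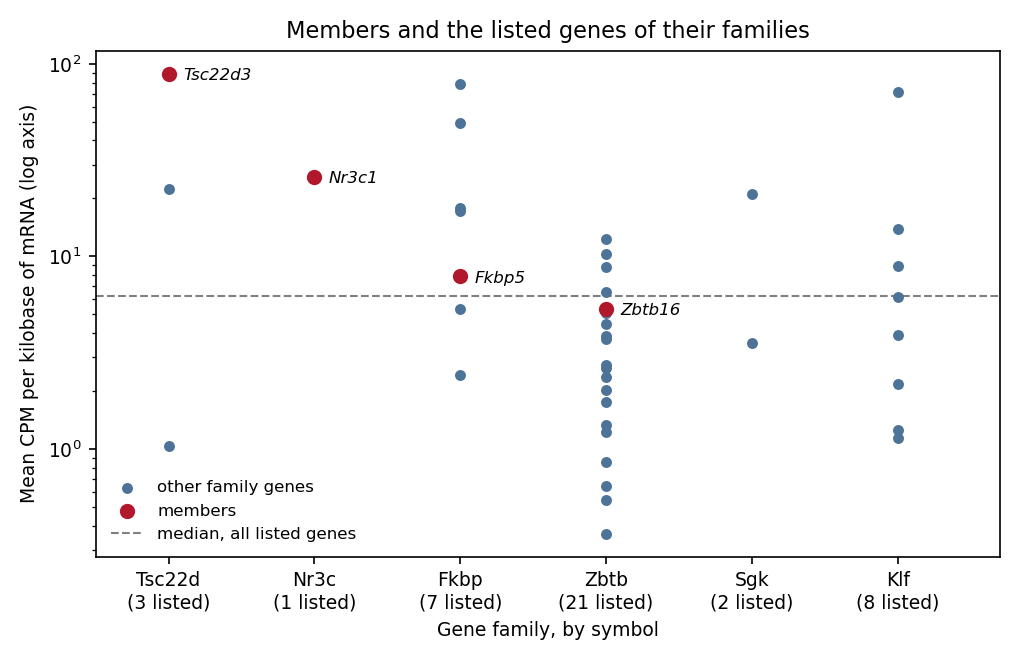
Mean CPM per kilobase of mRNA (vertical, log axis) of the listed genes in each family (horizontal), with members in red, other family genes in blue, and the median of all listed genes, 6.19, as a dashed line. Tsc22d3 tops its family at 88.8, whereas Fkbp5 (7.87) and Zbtb16 (5.36) are each 5th in theirs.

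The other genes of the pathway were taken by role. Of 12 genes of the receptor chaperone complex, 9 were listed, and all 9 were above the median listed gene. Their levels ran from 21.2 CPM per kilobase for Ppid, the cyclophilin 40 gene, and 36.0 for Hspa4, to 357 for Hsp90ab1 and 1068 for Hspa8, the constitutive Hsp70. Hsp90ab1 was 13.8 times as high as Nr3c1 per kilobase, and Fkbp5 was lower than each of the 9. Ptges3, Dnajb1 and Ppp5c were not listed.

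Of 9 genes that handle the ligand, 3 were listed. Hsd11b1, the enzyme that regenerates active corticosterone inside liver cells, stood at 773 CPM per kilobase, 29.8 times Nr3c1. Srd5a1, a steroid 5-alpha-reductase, was at 52.8, and Abcb1a, an efflux transporter for steroids, at 0.688 CPM per kilobase. The binding globulin gene Serpina6 was among the 6 not listed.

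Coregulators of the receptor were lower per kilobase. Of 11 such genes 9 were listed, with a median of 5.45 CPM per kilobase, and 3 were above the median listed gene. Ncor1, a corepressor, was the highest at 15.3, and Smarca4, the ATPase of a chromatin remodeller, followed at 7.12. Ncoa1 (3.43), a coactivator gene, and Nrip1 (2.63) were the lowest. Nr3c1 was above all 9, and per kilobase 3.64 times as high as Ncoa2, a coactivator that binds the receptor. The listed coregulator mRNAs are long, from 4529 bases for Nrip1 to 8852 for Ncor1, against a median of 2959.5 for all listed genes. In CPM without division by length, Nrip1 at 11.9 was below the median listed gene at 18.7. The rest of the 9 were above it, from Ncoa1 at 25.2 to Ncor1 at 135 CPM.

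Of 22 hepatic glucocorticoid target genes outside the set, 16 were listed, with a median of 14.7 CPM per kilobase. Per kilobase, 12 of them were above the median listed gene. Pck1, the enzyme that commits carbon to gluconeogenesis, was at 799 and Tat, tyrosine aminotransferase, at 595 CPM per kilobase. The lowest were Gadd45b, at 1.29, and Pdk4, the kinase that inhibits pyruvate dehydrogenase, at 0.893. Tat was 6.70 times as high as Tsc22d3, and Pck1 was 149 times as high as Zbtb16. Dusp1, a phosphatase gene that the hormone induces, was close to Fkbp5 per kilobase, at 0.946 times its level. In CPM without division by length Dusp1 was further below Fkbp5, at 14.4 against 27.6. Per kilobase, the members thus lay within the range of the other targets, Tsc22d3 below 3 of the 16 and Ddit4 above 2 of them. In CPM without division by length, Lpin1 (302) was also above Tsc22d3 (191), and Pdk4 (3.09) was above Ddit4 (2.32). Of the 12 targets above the median per kilobase, Igfbp1 (16.1 CPM), Dusp1 (14.4) and Mt2 (4.70) were below the median listed gene in CPM, at 18.7.

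**Figure D3:**
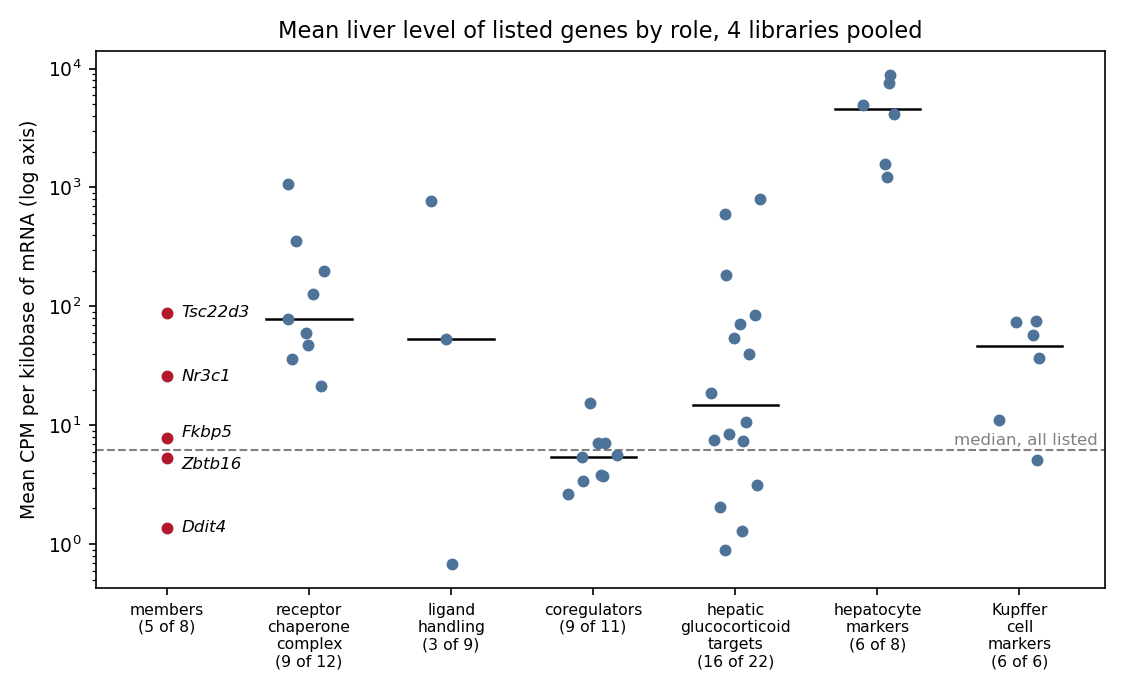
Mean CPM per kilobase of mRNA (vertical, log axis) for the listed genes of each role, with the number listed of the number looked up under each name, list medians as black bars and the median of all listed genes, 6.19, as a dashed line. The 5 members (red) span 1.38 to 88.8, all below the hepatocyte markers, which start at 1230.

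The tissue label was checked against markers. Of 8 hepatocyte markers 6 were listed, at 1230 to 8801 CPM per kilobase, transferrin under its mouse symbol Trf. Alb and Ttr, the albumin and transthyretin genes, were not listed, so that a gene missing from the results is not thereby absent from the liver. All 6 Kupffer cell markers were listed, from 5.15 to 74.8 CPM per kilobase, as were 4 of 5 endothelial markers (8.52 to 76.9) and 5 of 5 stellate cell markers (1.03 to 98.3). None of the cholangiocyte (4), lymphocyte (5), skeletal muscle (3) or adipocyte (2) markers looked up was listed. Since Alb was not listed either, this does not show that these cells were missing. The levels of the members in whole liver do not tell which cells held the mRNA, nor can fewer cells of a type and less RNA per cell be told apart.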

How the data were processed

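RNA-Seq libraries were made by the authors from rRNA-depleted liver RNA of 4 mice with a stranded kit and read for 50 cycles. Bowtie alignments to mm9 RefSeq mRNAs, with the longest isoform of each gene, were counted by the authors when unique and with up to 2 mismatches, so genes with near-identical copies rest on their distinct stretches. The authors deposited the results of an edgeR comparison, made for genes above 1 CPM in at least 3 samples; the sources used here give no version of these tools. Used here were the log2 mean CPM over the 4 libraries, as deposited by the authors, and the mRNA length. The other 3 columns hold the authors' own fold changes, p-values and FDR between the diets and were not used. The 7000 genes stand in order of that p-value, and Alb and Ttr are not among them. Which genes are listed may therefore depend on that p-value rather than on level, which was not tested. Levels were taken as 2 to the power of the deposited value and divided by length in kilobases.

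The planned test between diets needed counts for each mouse and was not run. Members and lists were chosen with earlier results of these data known, and the gene families were added after the levels were seen. Named genes were the 8 members, the genes next to each in level per kilobase, and the 2 highest and 2 lowest of each pathway list, while cell type markers are given by their range. Others named are relatives of a member or were chosen after their values were seen. From the planned coregulator list 1 gene was left out of the counts and is not reported here. Gene models were those of GENCODE vM1 on NCBIM37, to which 6786 listed genes matched by symbol, and promoters of GRCm38.p6 came from RefSeq. The search for sequence elements was tested on simulated data. The software was Python 3.11.15 with numpy 2.4.6, pandas 2.3.3, scipy 1.17.1, and, for the plots, matplotlib 3.10.9.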

Additional observations from a re-analysis of the deposited data

How the results depend on the processing

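The percentile of each member among the listed genes, by CPM per kilobase, was 93.0 for Tsc22d3, 81.1 for Nr3c1, 56.3 for Fkbp5, 46.2 for Zbtb16 and 17.4 for Ddit4. The order of the 5 genes, or of those without Ddit4 where it was left out, was the same under each alternative run. Without division by length the percentiles were 92.2 for Nr3c1, 60.5 for Fkbp5, 60.3 for Zbtb16 and 8.89 for Ddit4. With the length of the longest annotated transcript they were 91.7 for Tsc22d3, 48.3 for Zbtb16 and 18.5 for Ddit4. Among the 5569 listed genes of at least 5 CPM, which leaves Ddit4 out, they were 91.2 for Tsc22d3, 76.3 for Nr3c1, 45.1 for Fkbp5 and 32.6 for Zbtb16, since fewer low genes are counted. Restricting to genes matched to the annotation, an alternative added after seeing the data, gave 92.9 for Tsc22d3 and 46.1 for Zbtb16. The other percentiles stayed as printed. This restriction keeps 6786 of the 7000 listed genes, so it could move a percentile only a little. The palindromic element was near a start site of 1 of the 6 genes searched in the promoter window and of 2 with 1000 bases on each side, with or without 1 mismatch (1 and 2). No paired analysis was possible because the deposited levels have no columns for single mice, and leaving out each mouse and the count alternatives were not run for the same reason. The listed genes may depend on the authors' comparison, so percentiles hold among them only, and without depth per mouse no counting error can be given.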
